A study of Mus musculus with 9 samples.

Results

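Chemokines and interleukins are small secreted proteins that carry signals between cells, and C2C12 myotubes were examined here for the transcripts of these ligands and of their receptors. The members were all probe sets whose annotation gave exactly 1 gene symbol that starts with Ccl, Ccr, Cxcl, Cxcr or Il and goes on with a digit. The rule found 101 genes on 134 probe sets, of 15964 genes named by a single symbol on the 3 array designs. There were 55 ligands, 40 receptors or receptor chains, and 6 others, namely 5 antagonists, decoy receptors or binding proteins and the enzyme Il4i1. A further 6 probe sets were array controls for Il4 and Il10 and are described apart.

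C2C12 is an established line of mouse skeletal myoblasts that fuse into myotubes when serum is withdrawn. All 9 arrays carried total RNA of these cells after 5 days in DMEM with 2% horse serum and penicillin and streptomycin at 37 °C. Each of the Affymetrix designs U74Av2, U74Bv2 and U74Cv2 was hybridised 3 times, and no other condition was measured. The labels give every array the same sample entry and name no separate cultures, so the tests reflect array-to-array spread alone and the replicates may be technical. All values describe 1 cell line with no stimulus named in the labels.

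The deposited values are probe set signals on a linear scale. For each array a background limit was set at the 95th percentile of control probe sets whose target was taken to be absent, leaving out control families with high signal, and a probe set was taken as detected where its signal exceeded that limit on every array of its design. The limits were 205.8, 280.4 and 256.5 signal units on U74Av2 for replicates 1, 2 and 3. For U74Bv2 the limits were 498.4, 430.0 and 963.4, and those of U74Cv2 were 1034.3, 725.2 and 786.4. Multiples of the limit are given as mean ± SD over the 3 arrays of a design. Because probe affinity differs between probe sets, each gene is compared with the limit of its own array and not with other genes. In such bulk RNA, fewer cells of a type and less RNA per cell cannot be told apart. The muscle identity of the cells was clear, with all 8 skeletal muscle markers detected, among them Myog at 66.7 ± 11.7 times the limit (SD, n = 3). Of 19 leukocyte markers 7 were detected, and the summed signal of the 19, over whichever design held each, lay between 10554 and 12302 on the 3 replicates, with none at 0. That sum adds signals of separately scaled arrays and of probe sets with unlike affinity, so it does not measure an amount of leukocyte RNA. The pan-leukocyte marker Ptprc lay at 0.131 ± 0.0324 times the limit and the myeloid marker Itgam at 0.177 ± 0.0691 times, while Cd14 lay at 9.53 ± 2.00 times and Csf1r at 3.06 ± 1.77 times (SD, n = 3). Of 6 fibroblast markers 5 were detected, and of 6 endothelial markers 2. Over all named genes the share detected was 62.0%. The endothelial calls were marginal, Pecam1 at 1.39 ± 0.42 and Kdr at 1.31 ± 0.30 times the limit (limma adjusted p = 0.14 and 0.185). The leukocyte marker Cd68, at 1.44 ± 0.24 times, did not pass that test either (adjusted p = 0.0702). The part of these markers in the results was not tested.

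Chemokines are grouped by the spacing of their first cysteines into the CC and CXC families, and they act on receptors that couple to G proteins and steer cell migration. Interleukins bind receptors built of several chains, often a private chain that recognises the ligand and a shared chain such as gp130 that transmits the signal through JAK kinases and STAT factors. The IL-1 and IL-17 families signal instead through adaptors that lead to NF-kB. In skeletal muscle, these factors are known for recruiting leukocytes after injury and, in the case of IL-6 and IL-15, as products of muscle itself.

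A gene was taken as detected where at least 1 of its probe sets was, so a gene with more probe sets had more chances. Of the 101 genes, 29 (28.7%) were detected, against 62.0% of all named genes. The number of probe sets per gene was not matched in this or the other gene shares. Among ligands 13 of 55 were detected (23.6%) and among receptors 15 of 40 (37.5%). Of 28 chemokine ligands 10 were detected, but of 13 chemokine receptors only Cxcr4. Of 27 interleukin ligands 3 were detected, but of 27 interleukin receptor chains 14 (51.9%). These shares describe the members and were not tested against one another. By design, 26 of 92 member probe sets were detected on U74Av2, where 58.2% of all probe sets were. On U74Bv2 the count was 6 of 23 against 43.8%, and on U74Cv2 it was 5 of 19 against 31.6%, a share near the background.

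**Figure D1:**
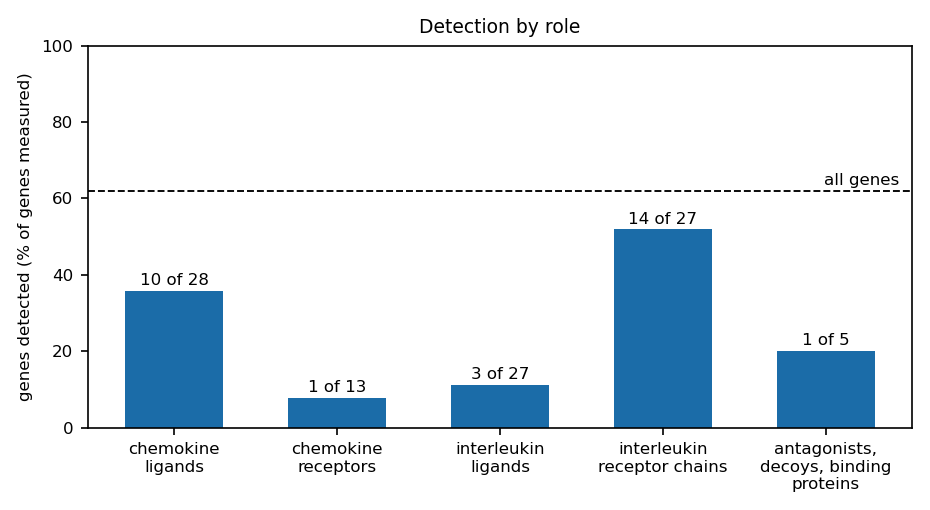
Genes detected in 5 roles (Il4i1, the single enzyme, is not drawn), as a percentage of the genes measured, with the numbers of genes detected and measured above each bar. The dashed line marks 62.0%, the share over all 15964 named genes. Of the roles drawn, interleukin receptor chains, at 14 of 27, come nearest to that line, and chemokine receptors, at 1 of 13, lie farthest below it.

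As a test, the log2 ratio of signal to limit was set against 0 with limma over all probe sets of a design, with Benjamini-Hochberg adjustment. By this test 33 of the 134 member probe sets lay above the limit and 72 below it. The share of all probe sets below the limit was not worked out, so the 72 cannot be called particular to the members. On U74Av2 23 members lay above it, where 55.8% of all probe sets did. For U74Bv2 the count was 6 and the share 38.0%, and for U74Cv2 they were 4 and 25.7%. Of the 37 detected member probe sets 4 did not pass, those of Il9, Il16 and Il2rb on U74Av2 and that of Il13ra1 on U74Cv2. The limit is shared by every probe set of an array, so its own error is shared too, and on U74Bv2, where it was highest in replicate 3, the test may understate it. On that design limma also gave every member probe set the same standard error, 0.482 in log2 ratio. The p-values and intervals there follow the height over the limit and not the spread of the single probe set. With the median signal of each array as the limit, Ccl7, Il3ra, Il6ra, Il2rb, Il9 and Il16 were no longer detected. With every control family kept in the limit, only Ccl9, Il6st, Il10rb and Il27ra of the members remained.

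Among the CC chemokines, Ccl2, Ccl7, Ccl9, Ccl22 and Ccl1 were detected, 5 of 16. Ccl2 (102736_at), the main attractant of monocytes, had signals of 1352, 1374 and 1475 in replicates 1, 2 and 3. The values lay close together, at 5.74 ± 0.84 times the limit (SD, n = 3). The log2 ratio was 2.51 with a 95% interval of 1.97 to 3.05 (adjusted p = 2.41e-05). Ccl7 (94761_at), which shares the receptor Ccr2 with Ccl2, read 516, 409 and 703. All of these exceeded the limit, at 2.24 ± 0.68 times, but replicate 3 stood 1.72-fold over replicate 2 (adjusted p = 0.00514).

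Ccl9 (104388_at), a mouse ligand of Ccr1, read 3446, 3388 and 4675, with replicate 3 the highest. Its mean was 15.7 ± 3.2 times the limit, a log2 ratio of 3.95 (95% interval 3.39 to 4.51, adjusted p = 3.17e-06). Ccl22 (102310_at), a ligand of Ccr4 on T cells, read 625, 895 and 672, at 2.95 ± 0.30 times the limit (adjusted p = 0.000325). The call for Ccl1, a ligand of Ccr8, differed between its probe sets. Probe set 94166_g_at read 641, 613 and 836, at 2.85 ± 0.58 times the limit (adjusted p = 0.000604). Its companion 94165_at read 22.3, 199 and 100.1, below the limit on every array. The detected probe set carries a suffix for non-standard probe selection, so the detection of Ccl1 is uncertain.

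The other 11 CC chemokines were not detected, among them Ccl4, Ccl8, Ccl12, Ccl17 and Ccl28, each below the limit on every array. Ccl24 (116192_at), an eotaxin, read 1256, 696 and 733, above the limit in replicates 1 and 2 but not in replicate 3. Ccl3 and, with 92849_at, Ccl6 also exceeded the limit on 2 of 3 arrays, at 0.91 ± 0.34 and 1.12 ± 0.21 times. The other Ccl6 probe set, 167582_f_at on U74Cv2, lay below the limit on every array, at 0.189 ± 0.045 times. Ccl5, an attractant of T cells, read 39.8, 30.5 and 34.2, and the eosinophil attractant Ccl11 read 47.3, 31.7 and 28.9. Ccl25, a thymic and gut chemokine, lay at 0.235 ± 0.054 times the limit (SD, n = 3). Each of these lay below the limit by the test (adjusted p = 2.2e-05, 4.22e-05 and 8.53e-05).

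Of the CXC chemokines, Cxcl1, Cxcl5, Cxcl12, Cxcl16 and Cxcl17 were detected, 5 of 12. Cxcl1 (95348_at), a neutrophil attractant, read 1071, 1098 and 1090.1, all within 1.03-fold, at 4.46 ± 0.67 times the limit (adjusted p = 5.77e-05). Its second probe set 95349_g_at was detected as well, at 2.00 ± 0.30 times. Cxcl5 (98772_at), which acts on the same receptor Cxcr2, read 690.4, 1001 and 824. Replicate 2 was the highest, and relative to the limit the arrays lay within 3.21 to 3.57 times (adjusted p = 0.00015). Cxcl2 (101160_at), another ligand of Cxcr2, read 129, 52.2 and 174, below the limit throughout (adjusted p = 0.0186).

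Cxcl12, which retains stem and progenitor cells and guides them through Cxcr4, was detected by 3 of its 4 probe sets. Probe set 160511_at read 1048, 1090.0 and 1195, at 4.55 ± 0.61 times the limit (adjusted p = 5.18e-05). Probe set 100112_at read 617, 613 and 839, and 105704_at on U74Bv2 read 1232, 1424 and 1492, at 2.82 ± 0.56 and 2.44 ± 0.88 times their limits. The exception, 162234_f_at, lay at 0.99 ± 0.19 times the limit and carries a suffix for possible matches within a gene family.

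Cxcl16, a membrane-anchored chemokine, was detected by 1 of 3 probe sets. Probe set 163760_at read 1929.8, 1157 and 1277, with replicate 1 the highest, at 2.63 ± 1.27 times the limit of U74Bv2 (adjusted p = 0.0147). The others lay below the limit on every array, at 0.173 ± 0.097 and 0.414 ± 0.238 times. Cxcl17, a chemokine of mucosal tissue, was detected on both of its designs. On U74Bv2 (114990_at) it read 2066, 1519 and 1825, at 3.19 ± 1.16 times the limit (adjusted p = 0.00186). On U74Cv2 (169733_at) it read 1970.4, 7393 and 6328, so that replicate 1 lay 3.75-fold below replicate 2, the widest gap of any detected member (adjusted p = 0.00845). The deposited experiment records put replicate 1 of that design on another fluidics station than replicates 2 and 3, whose readings lay close together, and the part of the station in this gap was not tested.

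The interferon-induced chemokines were not detected. Cxcl9 read 74.1, 15.1 and 25.8, Cxcl10 read 40.9, 17.7 and 70.1, and Cxcl11 read 467, 513 and 357 on U74Cv2. All 3 lay below their limits by the test (adjusted p = 0.000552, 0.00036 and 0.0383). Cxcl14, a chemokine of epithelia, lay at 0.416 ± 0.012 times the limit (SD, n = 3), and Cxcl13 and Cxcl15 were not detected either.

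**Figure D2:**
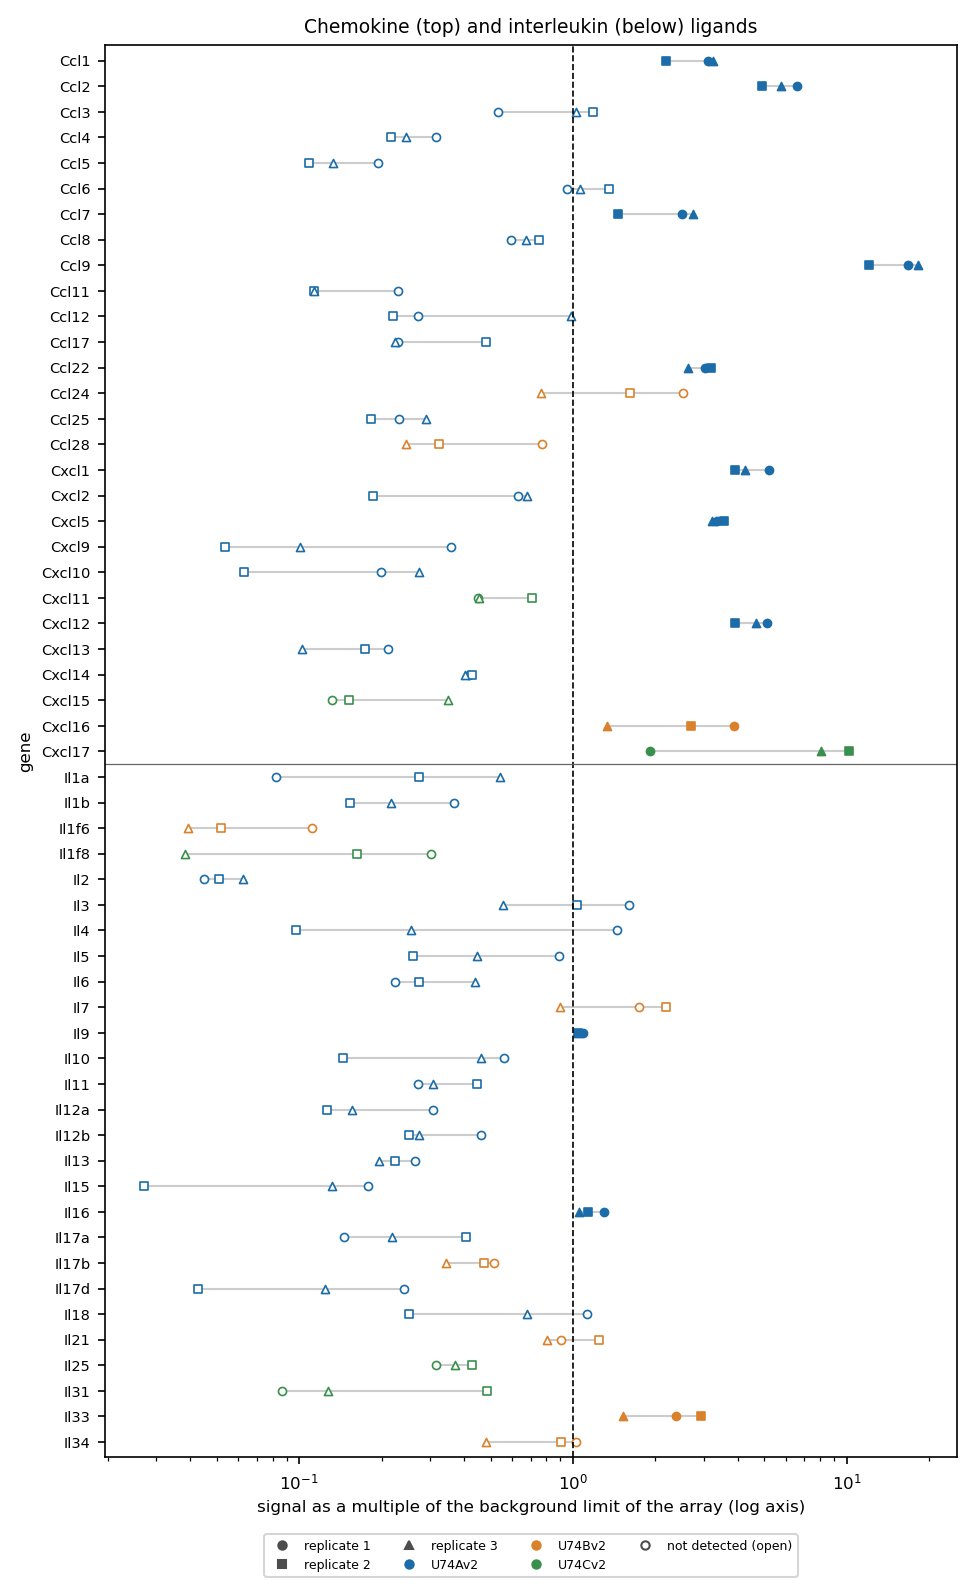
Signal of each ligand gene as a multiple of the background limit of its array, on a log axis, for replicates 1 to 3 (circle, square, triangle); colour gives the design and the dashed line marks the limit. Each gene is shown by its detected probe set, or else by any of its probe sets, with the highest mean multiple. Filled symbols are the 13 detected ligands, of which Ccl9 lies at 15.7 times its limit on average while Il9 and Il16 sit at the line.

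Chemokine genes that were and were not detected stood next to one another in the genome. In the RefSeq gene order of mouse assembly GRCm38.p6, Ccl2, Ccl7, Ccl11, Ccl12, Ccl8 and Ccl1 follow each other with no other protein-coding gene between them. The outer genes Ccl2, Ccl7 and Ccl1 were detected, and Ccl11, Ccl12 and Ccl8 between them were not. The call for Ccl1 is uncertain, as its probe sets differed, and Ccl7 was lost with the median signal as the limit. In the run Ccl5, Ccl9, Ccl6, Ccl3 and Ccl4 only Ccl9 was detected, while Ccl3 and the higher Ccl6 probe set exceeded the limit on 2 of 3 arrays. Cxcl5, Ppbp, Pf4, Cxcl3, Cxcl15, Cxcl1 and Cxcl2 form another run, of which Cxcl5 and Cxcl1 were detected and Cxcl15 and Cxcl2 were not. Cxcl3 was not analysed here.

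The promoters of 4 members are shown because NF-kB, the factor that IL-1 and IL-17 receptors activate, is known to drive many of these genes. The windows run from 250 bases before to 50 after the gene start, from RefSeq on GRCm38.p6. Capitals mark matches to the kB-like letters GGGNNTTTCC on either strand. Cxcl1 lies on the plus strand at chr5:90890995-90891294, Cxcl2 on the plus strand at chr5:90903649-90903948, Ccl9 on the minus strand at chr11:83578587-83578886 and Il6 on the plus strand at chr5:30012864-30013163. Cxcl1 and Ccl9 were detected, and Cxcl2 and Il6 were not.

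Cxcl1: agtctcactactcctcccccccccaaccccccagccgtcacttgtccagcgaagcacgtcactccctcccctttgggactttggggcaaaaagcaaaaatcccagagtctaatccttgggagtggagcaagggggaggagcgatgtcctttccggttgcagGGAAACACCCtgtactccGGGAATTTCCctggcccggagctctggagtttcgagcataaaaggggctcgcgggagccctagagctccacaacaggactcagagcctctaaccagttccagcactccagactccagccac

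Cxcl2: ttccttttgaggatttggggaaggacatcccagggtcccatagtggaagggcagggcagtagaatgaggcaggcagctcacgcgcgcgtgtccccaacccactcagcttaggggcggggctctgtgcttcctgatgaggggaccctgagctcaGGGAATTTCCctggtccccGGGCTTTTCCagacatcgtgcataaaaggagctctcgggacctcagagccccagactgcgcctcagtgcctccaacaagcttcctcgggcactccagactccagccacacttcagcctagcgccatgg

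Ccl9: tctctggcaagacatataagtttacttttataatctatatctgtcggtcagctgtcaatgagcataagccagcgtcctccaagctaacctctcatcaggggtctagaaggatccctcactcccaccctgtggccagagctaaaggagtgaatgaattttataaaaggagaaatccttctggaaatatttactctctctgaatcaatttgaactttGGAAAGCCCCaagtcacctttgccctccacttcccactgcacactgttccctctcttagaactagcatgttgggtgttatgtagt

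Il6: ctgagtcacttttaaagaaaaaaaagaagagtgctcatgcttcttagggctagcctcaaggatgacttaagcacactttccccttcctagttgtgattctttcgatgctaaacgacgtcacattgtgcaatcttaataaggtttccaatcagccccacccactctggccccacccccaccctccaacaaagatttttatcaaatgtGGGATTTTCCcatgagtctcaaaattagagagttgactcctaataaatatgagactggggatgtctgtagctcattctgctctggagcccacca

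Cxcl1 and its neighbour Cxcl2 each held 2 matches, and GGGAATTTCC stood in both windows, 71 bases before the start of Cxcl1 and 97 before that of Cxcl2. Signals of Cxcl1 lay well above the limit and those of Cxcl2 below it. Over all 27025 genes with a promoter window, 512 held a match (1.89%). Windows were found for 8 of the 13 detected ligands, and 4 of these held a match, namely Ccl9, Cxcl1, Il9 and Il16. Of 30 ligands that were not detected but had a window, 2 held one, Cxcl2 and Il6. Of the receptors, 2 of 11 detected ones did (Il17rc and Il4ra) and 1 of 21 others (Ccr3). Among the detected ligands with a match, Il9 and Il16 lay only at 1.06 and 1.16 times the limit. Neither passed the limma test (adjusted p = 0.737 and 0.398), so their calls are uncertain. A second motif, the interferon-response letters GAAANNGAAA, was found in 0 of the 8 detected ligands and in 3 of the 30 others, Cxcl10, Cxcl14 and Il4, against 3.99% of all genes. The motifs overlapped in 3 windows of the whole table. These matches describe the letters in the windows only, and the motifs were chosen after the detection calls were known.

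Of the 27 interleukin ligands, Il9, Il16 and Il33 were detected, and of these Il33 alone passed the test. This member of the IL-1 family is held in the nucleus and released from damaged cells. Its probe set 113122_i_at read 1186, 1257 and 1470.5, at 2.28 ± 0.70 times the limit of U74Bv2 (log2 ratio 1.14, 95% interval 0.19 to 2.08, adjusted p = 0.0287). The companion 113123_r_at read 409, 541 and 702, and exceeded the limit in replicate 2 alone. Both carry suffixes for non-standard probe selection.

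Il16, a ligand of CD4, read 268, 318 and 270.2 and exceeded the limit by little on each array, at 1.16 ± 0.13 times (adjusted p = 0.398). Il9, a growth factor of T cells and mast cells, read 224, 293 and 267, at 1.06 ± 0.03 times (adjusted p = 0.737). Both calls rest on signals within the error of the limit. With the highest of the control probe sets as the limit, neither was detected, nor was Il2rb. Cd4, which encodes the receptor of Il16, lay at 2.87 ± 1.67 times the limit and was detected.

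Il6, Il15 and Il7 were not detected on these arrays. Il6 (102218_at) read 46.0, 77.0 and 112, at 0.312 ± 0.112 times the limit (adjusted p = 0.00046). Il15 (161037_at) read 36.8, 7.58 and 33.8, at 0.113 ± 0.078 times (adjusted p = 0.000264). Il7 had probe sets that differed in height: 97709_at lay at 0.263 ± 0.232 times, while 111968_at on U74Bv2 read 868, 939 and 861. Those 3 readings are close, and the last missed only the higher limit of its array (adjusted p = 0.274).

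Neither form of IL-1 was detected. Il1b read 75.4, 43.1 and 55.6 and Il1a 16.9, 77.0 and 139, at 0.246 ± 0.109 and 0.30 ± 0.23 times the limit. Il4, which recruits myoblasts to growing myotubes, had 4 probe sets of its own with means between 0.0967 and 0.60 times the limit. Of these, 92286_g_at exceeded the limit in replicate 1 alone. Il13 lay at 0.227 ± 0.035 times, Il10 at 0.389 ± 0.217 times and Il11 at 0.341 ± 0.091 times (SD, n = 3). Il18 read 231, 70.8 and 175, above the limit in replicate 1 alone. Il3 exceeded the limit on 2 of 3 arrays, at 1.07 ± 0.53 times, and Il21 and Il34 on 1 of 3. The other interleukins not detected were Il1f6, Il1f8, Il2, Il5, Il12a, Il12b, Il17a, Il17b, Il17d, Il25 and Il31. As an example, Il2, the T cell growth factor, lay at 0.0527 ± 0.0088 times the limit.

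Array controls for Il10 and Il4 are printed on all 3 designs so that the same probe sets were read on each. The Il4 control was below the limit on all 9 arrays. The Il10 control read 55.5, 25.5 and 56.1 on U74Av2, below the limit. It read 284, 558 and 286 on U74Bv2, where replicate 2 alone exceeded the limit, and 1803, 418 and 333 on U74Cv2, where replicate 1 alone exceeded the limit.

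Among receptors, the common signal chain of the IL-6 family was detected by every probe set. Il6st, which encodes gp130, read 2951, 2981 and 2939 with 94345_at, and these arrays differed by 1.01-fold, the closest agreement of any detected member. It lay at 12.1 ± 1.9 times the limit, a log2 ratio of 3.59 (95% interval 3.05 to 4.13, adjusted p = 4.09e-06). Probe set 98349_at lay at 3.60 ± 1.16 times, and 135888_at on U74Cv2 read 7501, 7229.8 and 5854, at 8.22 ± 1.52 times. Il6ra (104268_at), the private chain for IL-6, read 656, 353 and 598. All of these exceeded the limit, but replicate 2 was low, and the mean was 2.26 ± 0.97 times (adjusted p = 0.011). Il27ra (102250_at), which joins gp130 to form the receptor for IL-27, read 1853, 2079.8 and 2166, at 8.29 ± 0.81 times the limit (adjusted p = 7.8e-06).

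The chains for IL-4 and IL-13 were both detected. Il4ra (102021_at) read 1251, 1016 and 1265, at 4.88 ± 1.23 times the limit (adjusted p = 6.74e-05). A second Il4ra probe set, 161192_at, exceeded the limit in replicate 1 alone, at 1.01 ± 0.54 times. Il13ra1, which pairs with it, read 553, 612 and 649.7 with 103723_at, at 2.47 ± 0.26 times (adjusted p = 0.000915). On U74Cv2 its probe set 135177_at read 1574, 1349 and 1330.5, above the limit on each array, though not by the test (adjusted p = 0.0584). Il13ra2, the decoy receptor for IL-13, read 31.4, 8.63 and 68.2 and was not detected.

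Receptors of the IL-1 family were divided. Il1r1 (93914_at), the signalling receptor for IL-1, read 1285, 1465.5 and 1655, at 5.97 ± 0.66 times the limit (adjusted p = 1.94e-05). Its obligate partner Il1rap was below the limit with all 3 probe sets, at 0.0882 ± 0.0936, 0.185 ± 0.050 and 0.271 ± 0.218 times. Il1rl2 (112750_at), the receptor for IL-36, which needs the same partner, read 1937, 1179.5 and 1891, at 2.86 ± 0.97 times the limit (adjusted p = 0.00451). Il18r1 and Il18rap, the chains for IL-18, were not detected, at 0.181 ± 0.131 and 0.472 ± 0.208 times. The antagonist Il1rn, which blocks Il1r1, was detected by 93871_at with 923, 740.5 and 736.7, at 3.33 ± 1.00 times (adjusted p = 0.000389). Its probe set on U74Cv2, 170250_i_at, was not detected, at 0.0479 ± 0.0341 times. The decoy receptor Il1r2 lay at 0.749 ± 0.056 and 0.334 ± 0.136 times, and the binding protein Il18bp exceeded the limit on 2 of 3 arrays. Il1f5, the antagonist of the IL-36 receptor, lay at 0.548 ± 0.371 times. Il4i1, an amino acid oxidase, lay at 0.133 ± 0.028 times the limit of U74Cv2.

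Of the 5 IL-17 receptor chains measured, 3 were detected. Il17ra, the chain that most of these receptors share, read 1255.5, 997 and 1281 with 99992_at and 1003, 932 and 1044 with 99991_at. These lay at 4.88 ± 1.28 and 4.09 ± 0.77 times the limit (adjusted p = 7.18e-05 and 9.64e-05). A further probe set, 114552_at, exceeded the limit of U74Bv2 in replicate 2 alone. Il17rc (114433_at), the second chain for IL-17A, read 2209.9, 2586 and 3059, at 4.54 ± 1.42 times (adjusted p = 2.77e-05). Il17rd (133830_at), a chain also known as an inhibitor of FGF signalling, read 2213, 3197 and 2731, at 3.34 ± 1.14 times the limit of U74Cv2 (adjusted p = 0.00631). Il17rb lay at 0.552 ± 0.147 times, and Il17re (114210_at) read 832, 811 and 302, so that replicate 3 alone was below the limit.

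Further chains were detected from other families. Il10rb (99491_at), a chain shared by the receptors for IL-10 and IL-22, read 1625, 1884.5 and 2209, at 7.74 ± 0.95 times the limit (adjusted p = 9.74e-06). Its private partner for IL-10, Il10ra, lay at 0.317 ± 0.169 times and was not detected. Il20rb, a chain of the receptors for IL-19, IL-20 and IL-24, read 2953, 4623 and 3862 with 168947_f_at, at 4.71 ± 1.77 times the limit (adjusted p = 0.00281). Its other probe set was above the limit on 2 of 3 arrays, and both carry the family suffix. Il3ra (92955_at), the private chain for IL-3, read 431, 437 and 647, at 2.06 ± 0.48 times (adjusted p = 0.00529). Il2rb, shared by the receptors for IL-2 and IL-15, read 389, 326 and 277 with 100764_at, just over the limit at 1.38 ± 0.44 times (adjusted p = 0.164). On U74Bv2 its probe set 112262_at read 493, 556 and 1221 and missed the limit in replicate 1. The IL-15 receptor chain Il15ra read 141, 139 and 145, at 0.583 ± 0.097 times, and Il7r lay at 0.561 ± 0.219 times. Il2ra, Il5ra, Il9r, Il12rb1 and Il12rb2 were not detected.

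Among the chemokine receptors, Cxcr4 (102794_at), the receptor for Cxcl12, read 1192, 1168 and 922, at 4.52 ± 1.14 times the limit (log2 ratio 2.15, 95% interval 1.57 to 2.72, adjusted p = 8.34e-05). The other 12 were not detected. Ccr6 (99899_at) read 542, 133 and 494 and Cxcr3 (94173_at) read 268, 293 and 97.1, each above the limit on 2 of 3 arrays. Cxcr2, the receptor of Cxcl1 and Cxcl5, read 167, 160.1 and 136, at 0.638 ± 0.152 times (adjusted p = 0.0311). Ccr2, the receptor of Ccl2 and Ccl7, read 109, 23.3 and 38.3, at 0.254 ± 0.241 times (adjusted p = 0.00167). Ccr1 had 3 probe sets between 0.218 and 0.318 times their limits, Ccr7 lay at 0.503 ± 0.304 times and Cxcr5 at 0.754 ± 0.316 times. The rest were Ccr1l1, Ccr3, Ccr4, Ccr8 and Ccr9.

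**Figure D3:**
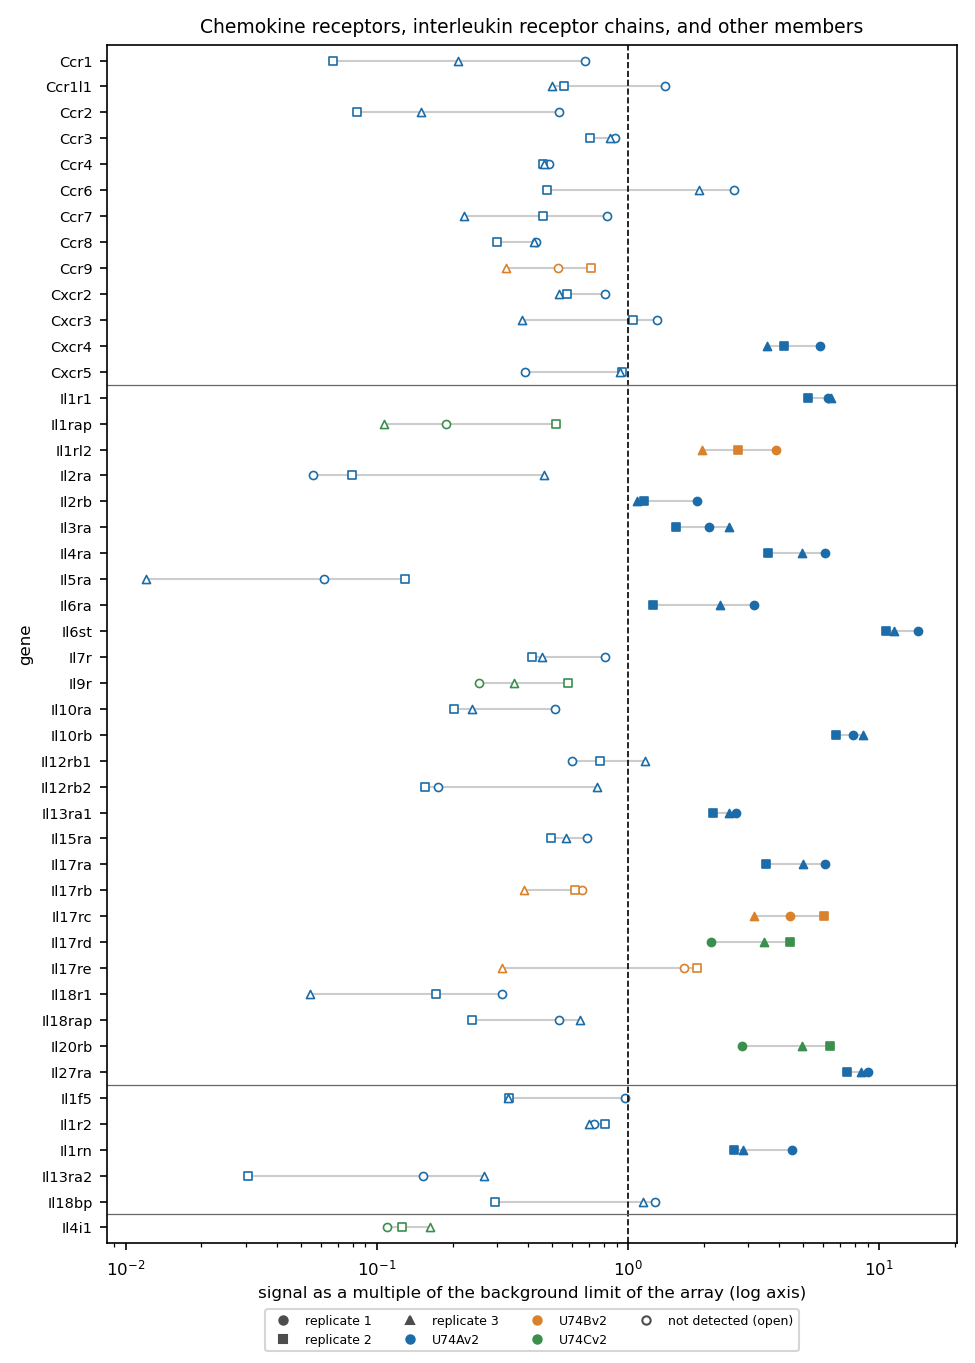
Signal of each receptor gene and of the other members as a multiple of the background limit of its array, drawn as for the ligands; horizontal lines part the chemokine receptors, interleukin receptor chains, antagonists with decoys and binding proteins, and Il4i1. Cxcr4, at 4.52 times the limit, is the only filled chemokine receptor, whereas 14 of 27 interleukin receptor chains are filled.

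Ligands and receptors were then set side by side, over 38 ligands with the chains of a known receptor, of which 24 had every partner measured. Among these 24, Cxcl12 with Cxcr4 was the only set with the ligand and the whole receptor detected. In 6 sets the ligand was detected without its receptor: Cxcl1 and Cxcl5 without Cxcr2, Ccl2 and Ccl7 without Ccr2, Ccl22 without Ccr4 and Ccl1 without Ccr8. The detection of Ccl1 is uncertain, since its probe sets differed in their call. In 4 sets each receptor chain was detected without the ligand: those for Il3, Il6, Il13 and Il17a. Of these, Il3 itself exceeded the limit on 2 of 3 arrays. With the median signal of each array as the limit, Il3ra and Il6ra were no longer detected. In the other 13 sets neither the ligand nor a whole receptor was detected. The list does not hold every pair. Outside it, Ccl9 was detected and its receptor Ccr1 was not, while Il16 with Cd4 and Cx3cl1 with Cx3cr1 were detected on both sides. Of these, Il16 lay at 1.16 times the limit and did not pass the limma test (adjusted p = 0.398). Cd4 read 899, 890 and 273, the last just over the limit of its array, 256.5. Il3ra alone stands for the IL-3 receptor here, since its shared chain carries another name. Il2rg, Il1rl1, Il11ra1, Cxcr1 and Cxcr6 were not analysed here.

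**Figure D4:**
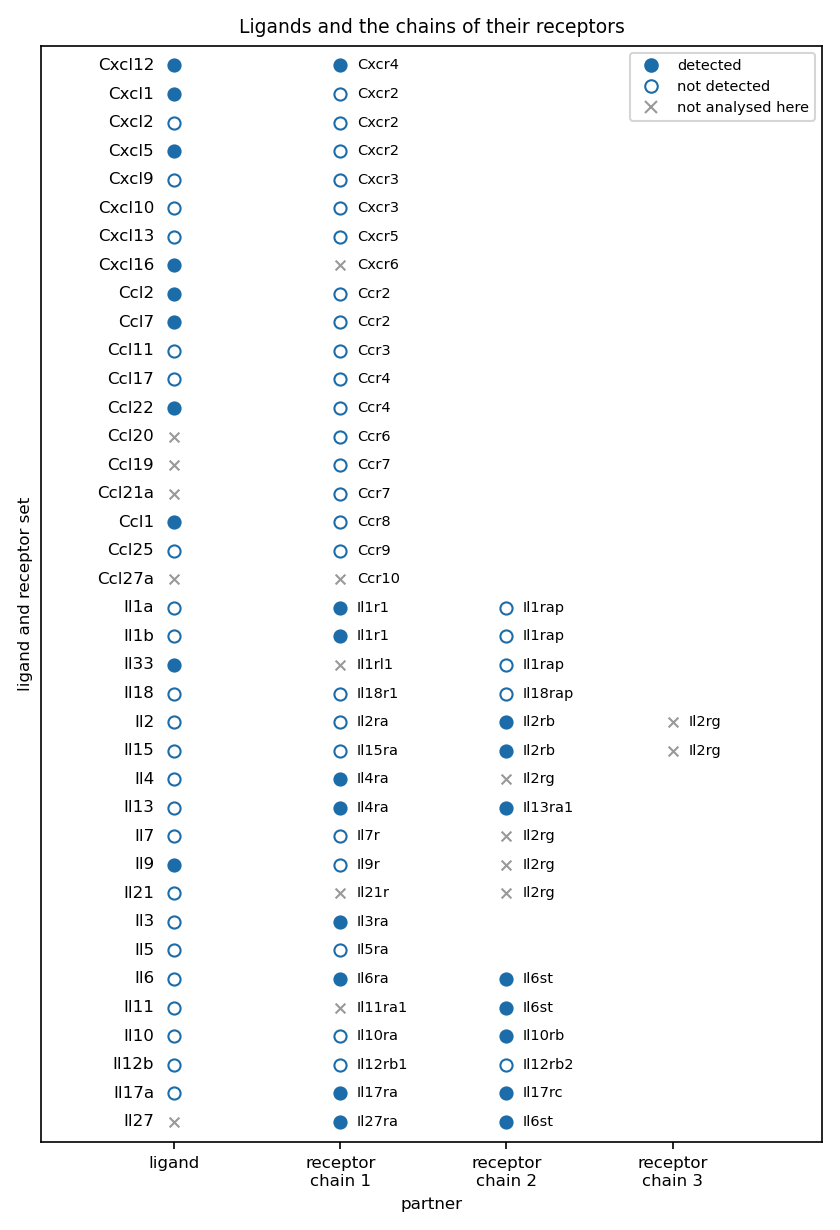
Ligands (left) and the chains of their receptors (right), 1 ligand in each row; filled circles are detected, open circles not detected and crosses not analysed here. Among the rows with every partner measured, Cxcl12 and Cxcr4, at the top, are the only one filled on both sides, and the rows of Il3, Il6, Il13 and Il17a have filled receptor chains beside an open ligand.

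Other genes of these pathways were taken from lists chosen with the members, 72 of whose 82 genes were measured. Of these, 54 (75.0%) were detected, against 62.0% of all named genes. All 10 genes on the list of feedback inhibitors, made up of Socs genes, Cish, Pias1 and Pias3, were detected. Among them Socs3, which shuts off gp130 signalling, lay at 9.99 ± 1.63 times the limit and Socs1 at 3.21 ± 0.37 times (SD, n = 3). Of kinases and STAT factors 7 of 10 were detected. Jak1 lay at 14.3 ± 3.1 times and Stat3, the main factor downstream of gp130, at 15.7 ± 2.5 times, while Stat2, Stat4 and Stat6 were not detected. Stat4 and Stat6 lay at 0.688 ± 0.202 and 0.146 ± 0.080 times. Stat2 on U74Bv2 missed only the higher limit of replicate 3. Its mean was 2.45 ± 1.48 times, and it passed the limma test narrowly (adjusted p = 0.0497).

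Of the adaptors and NF-kB genes 15 of 18 were detected, with Myd88, the adaptor of IL-1 receptors, at 2.23 ± 0.44 times and Rela, an NF-kB subunit, at 33.3 ± 3.5 times. Irak3, Rel and Tnfaip3 were not. Of 5 further genes of the gp130 family 4 were detected, including the oncostatin M receptor Osmr at 3.94 ± 0.52 times. Of 11 chemokine genes with other names 6 were, including the membrane-bound ligand Cx3cl1 at 7.26 ± 1.70 times, its receptor Cx3cr1 at 4.24 ± 0.78 times, and the scavenger receptor for Cxcl12, Ackr3, at 2.43 ± 0.57 times. Of 8 genes of chemokine receptor signalling 6 were detected, Arrb2 and Rgs2 being the exceptions. Of 10 other cytokine genes 6 were detected, namely Csf1, at 37.9 ± 10.4 times, Csf3 and the receptors Tnfrsf1a, Tnfrsf1b, Ifngr1 and Ifngr2. Tnf, Ifng, Csf2 and Mif were not detected.

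The spread between replicates is given for the detected members, which by rule had to exceed the limit on every array. The highest array was on median 1.32-fold over the lowest, and in 36 of 37 probe sets the gap was under 2.0-fold. On U74Av2 the 26 detected member probe sets had a median SD of 0.20 in log2 signal, beside 0.15 for all that were detected. It was 0.23 beside 0.18 on U74Bv2, and 0.27 beside 0.24 on U74Cv2, so the median was higher for the members on each design. Only 6 and 5 member probe sets stand behind these 2 medians. Detected members also lay nearer the limit on U74Av2 (median 3.49 times, beside 6.11 for all detected) and U74Bv2 (2.75 beside 4.21). On U74Cv2 they lay higher (4.71 beside 3.52). The part of signal height in the spread was not tested. After Cxcl17, the widest spreads were those of Il6ra (SD 0.48), Il1rl2 (0.40), Ccl7 (0.39) and Cxcl16 (0.39). Of 23 genes with several probe sets, all probe sets were detected in 4 (Cxcl1, Cxcl17, Il13ra1 and Il6st), none in 10, and the calls differed in 9.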

How the data were processed

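The authors deposited probe set intensity values on a linear scale, made with MAS5 per the submitters' processing notes, which name no version or settings here. The 2% trimmed mean lay between 1500.3 and 1500.9 on every array, so each array had been scaled by itself. Replicate pairs shared 0 identical values, and their log2 signals correlated at 0.873 to 0.959 across probe sets, which are not independent. The designs were kept apart. The limits used 20, 20 and 17 control probe sets on U74Av2, U74Bv2 and U74Cv2, leaving out control families with a median above that of the design. Gene symbols came from the platform annotation, which gives 10833, 10581 and 7717 probe sets of the 3 designs 1 symbol, 396, 178 and 150 several and 1193, 1652 and 4001 none, and 100 of the 101 member symbols were found in the RefSeq gene order. Of the probe sets, 6 named a member among several symbols and were left out. The moderated test used limma 3.58.1 in R 4.3.3 on log2 of signal over limit, with a threshold of 0.05. It was also run on simulated data with independent errors, which cannot show the error that probe sets share through the limit. Tables were handled in Python 3.11.15 with pandas 2.3.3 and numpy 2.4.6. Precision is limited by 3 arrays a design. Alternatives were another limit, normalization, probe set filter, gene rule and arrays left out. All detected members were named, with a panel of other members and those with differing probe sets. The members, lists and rules were chosen with earlier results of these data known. Some ligand and receptor sets are not reported here.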

Additional observations from a re-analysis of the deposited data

Results flagged for a closer look

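A probe set annotated to several symbols at once (96950_at on U74Av2), which the members leave out because it names no single gene, read 1026, 1049 and 1079. It lay at 4.31 ± 0.63 times the limit (SD, n = 3, limma adjusted p = 6.5e-05). It stands out as signal in data that the comparisons above do not use.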

How the results depend on the processing

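Of 66 recomputed values, 61 stayed within the set margin (counts within 1.5 times) and 5 moved, all when no control family was left out of the limit. The limits then rose to between 1300 and 8228 signal units, since control families above the design's median then enter, and 4 genes, 4 probe sets, 1 ligand and 3 receptors were detected and 2 probe sets passed the test. The share of all probe sets detected fell with them, to 25.6%, 9.5% and 4.2% on U74Av2, U74Bv2 and U74Cv2. Setting the limit at each array's median, 24 genes were detected, 23 of them shared with the 29, and with the highest control as the limit 26. Without replicate 1, 2 or 3, between 31 and 34 genes were detected; the rule asks for every array, so leaving one out can add genes but lose none. Leaving out replicate 2 added Ccr6 and Il18bp, and leaving out replicate 3 added Ccl24, Cxcr3, Il3, Il7 and Il17re. Without replicate 1, which on U74Bv2 and U74Cv2 leaves arrays of 1 fluidics station, Ccl3 and Ccl6 were added. Quantile normalization kept the same 29. Without suffixed probe sets 26 genes were detected, Ccl1, Il20rb and Il33 being lost, and on U74Av2 alone 22. No paired analysis was possible because each design has a single array per replicate number and the designs carry different probe sets, so that no result comes from a test between groups.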

Other observations

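On U74Av2, 15 of the 26 detected member probe sets had their highest signal in replicate 3, where 33.6% of all detected probe sets did. The median log2 deviation of the members from their own mean was 0.10 in replicate 3, beside 0.00 for all detected probe sets. By role, this held for 7 of 10 probe sets of chemokine ligands and 8 of 12 of interleukin receptor chains, and for 0 of 2 of interleukin ligands. On U74Cv2, 3 of 5 were highest in replicate 2. The pattern was seen in the data first and was not tested.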
